A study of Sus scrofa with 48 samples.

Results

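The sodium potassium pump was described through its 4 beta subunit genes, ATP1B1, ATP1B2, ATP1B3 and ATP1B4, and the regulatory subunit gene FXYD1, in longissimus muscle of 48 pigs. A probe was taken as a member when the array file gave 1 of these symbols as its gene name or in round brackets in its description, and when its spot was well above background, by the scanner software's own flag, on at least 12 of the 48 arrays. The rule found 10 probes of the 5 genes among 60305 non-control probes, which carry 10922 gene symbols, and all 10 were well above background on all 48 arrays, with no saturated and no outlier spot. ATP1B1 had 5 probes, ATP1B4 had 2, and ATP1B2, ATP1B3 and FXYD1 had 1 each.

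The pigs were purebred Large White barrows of 2 lines selected over generations for low or high residual feed intake (RFI), the feed eaten beyond that needed for growth and maintenance. Of each line, 12 pigs had free access to feed with much fat and fiber (HF diet). The other 12 had free access to feed of standard composition, labelled low fat (LF diet), which gave 4 groups of 12. No unselected line was among these pigs, so a line difference cannot be set against a common control. Whole muscle was hybridised, in which a lower share of a cell type and less RNA per cell cannot be told apart.

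The pump moves sodium out of the fibre and potassium into it against their gradients, at the cost of ATP, and so restores the ions that each action potential shifts in working muscle. Its catalytic alpha subunit needs a beta subunit to fold and reach the membrane, and small FXYD proteins tune its affinity and rate. FXYD1, phospholemman, is the main FXYD protein of heart and skeletal muscle and a target of protein kinases A and C. ATP1B4 stands apart in placental mammals, where its product is found at the inner nuclear membrane of muscle and not in the pump.

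Probe sequences show how far the measurements of 1 gene are independent. Each probe is a 60-base oligonucleotide. For ATP1B1, the probe A_72_P668484 starts at base 760 and A_72_P036071 at base 1125 of the target given in the array file, and their sequences have no stretch of over 5 bases in common. The other 3 ATP1B1 probes start at bases 2088, 2129 and 2136 of another target, a porcine clone, overlap each other, and have 13 bases in common. In the following lines, read 5′ to 3′, capitals mark bases common to all overlapping probes of a gene. The first ATP1B1 probe and the FXYD1 probe are given whole and 30 bases of each other probe are shown.
ATP1B1 A_72_P668484: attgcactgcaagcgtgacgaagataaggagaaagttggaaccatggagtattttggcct
ATP1B1 A_72_P036071: gggacctacacttaatctatatgctttaca
ATP1B1 A_72_P601328: tatgtcataattgccagGAGTACAGTGCTC
ATP1B1 A_72_P679040: tgccagGAGTACAGTGCTCttgttgatctt
ATP1B1 A_72_P176191: GAGTACAGTGCTCttgttgatcttgtattc
ATP1B2 A_72_P137611: ctctctgcagttatttaatgcctgtgtcag
ATP1B3 O9670: tagtaggagttaggatatctccacagagta
ATP1B4 A_72_P223637: CAGGGGGCCACTCCTACAAGTTctgtttct
ATP1B4 O7857: aataacttCAGGGGGCCACTCCTACAAGTT
FXYD1 O11356: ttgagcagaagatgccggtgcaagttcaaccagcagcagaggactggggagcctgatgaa

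The 2 ATP1B4 probes have 22 bases in common. The FXYD1 probe had the highest GC content of the 10, at 55%, against 35% to 45% for the other 9. No genome was used, so the probes are placed on their targets only and not on a chromosome.

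Levels are log2 processed signals, from which the array's mean over 42125 tested probes was subtracted, so a level of 0 is the average tested probe of that array. Levels of different probes are not set against each other, since probes differ in how they bind. Differences were tested with limma's moderated test in a fit of the 4 group means, and p-values were adjusted by Benjamini-Hochberg over all 42125 probes, with a threshold of 0.05. The line difference is high RFI minus low RFI, averaged over the diets unless one is named. Errors after ± are SD, and intervals are 95% confidence intervals of that fit.

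Between the lines, ATP1B3 was higher in high RFI pigs, by 1.21-fold. The 5 ATP1B1 probes all lay on the same side, at 1.11-fold to 1.14-fold, without passing the adjusted threshold. ATP1B2 and FXYD1 had lower mean levels in the high RFI line and ATP1B4 nearly equal ones, and none of these passed. In all, 1 of the 10 probes was called, while 16.4% of all tested probes were called in this comparison, so the share among the pump probes was no larger than that of the array. At an unadjusted p under 0.05 there were 6 of the 10 probes, the 5 of ATP1B1 and that of ATP1B3, and 13071 of the 42125. The median difference was 0.16 over the 10 probes and -0.029 over all tested probes, and the median absolute difference was 0.16 and 0.10. As 5 of the 10 probes are of ATP1B1, with nearly the same differences, these counts and medians lean on that 1 gene. They do not describe a shift of the 5 genes.

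**Figure D1:**
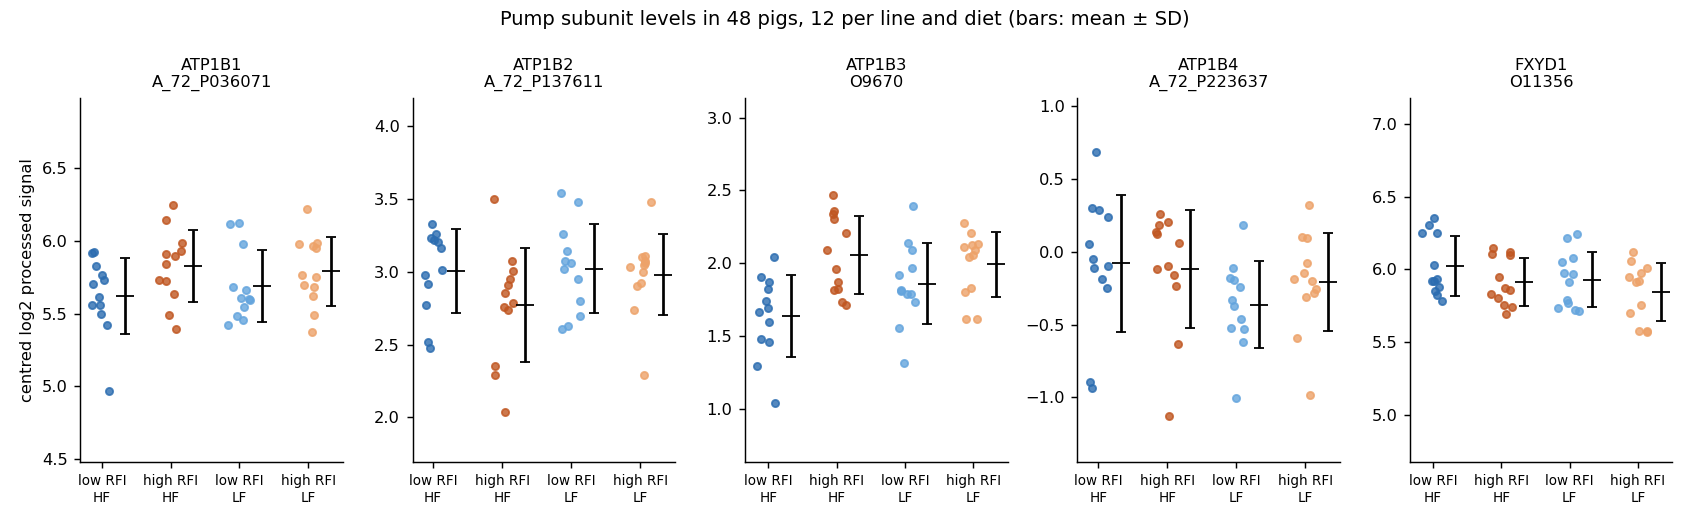
Centred log2 processed signal of 1 probe per gene in each of the 48 pigs (points), by line and diet, with the mean and SD of each group of 12 (bars). Each panel spans the same log2 range, and the high RFI pigs on the HF diet lie between 1.72 and 2.47 for ATP1B3, while low RFI pigs on that diet lie between 1.04 and 2.05.

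ATP1B3 encodes the beta 3 subunit, which is made in many tissues. Low RFI pigs on the HF diet had levels from 1.04 to 2.05, with a median of 1.68. High RFI pigs on the HF diet had levels from 1.72 to 2.47, with a median of 2.03. All 12 exceeded the median of low RFI pigs on that diet, and 6 exceeded every one of them, although the ranges overlapped. On the LF diet, low RFI pigs had levels from 1.32 to 2.39 (median 1.81) and the high RFI pigs from 1.62 to 2.28 (median 2.07). Here 9 of 12 high RFI pigs exceeded the low RFI median, and none exceeded every low RFI pig.

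Over both diets, ATP1B3 was at 2.02 ± 0.24 (n = 24) in high RFI and 1.75 ± 0.30 (n = 24) in low RFI pigs. The difference was 0.28 (standard error 0.076, interval 0.13 to 0.43, limma adjusted p = 0.00907), and 20 of 24 high RFI pigs exceeded the low RFI median. On the HF diet the difference was 0.42 (interval 0.21 to 0.64, limma adjusted p = 0.0154), and ATP1B3 was again the only pump probe called, where 6.39% of all probes were. On the LF diet it was 0.13 (interval -0.083 to 0.35, limma adjusted p = 0.579), with no pump probe called or under an unadjusted p of 0.05, against 2.47% of all probes called. The interaction, the difference on the HF diet minus that on the LF diet, was 0.29 (interval -0.014 to 0.59, unadjusted p = 0.0615 and adjusted p = 0.999 from limma), so the 2 diets were not shown to differ in the line difference of ATP1B3.

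The arrays lay on 6 slides with 2 arrays of each group per slide, and were scanned on 2 days. ATP1B3 levels were 2.04 ± 0.25 (n = 24) on the first day and 1.74 ± 0.28 (n = 24) on the second, and slides accounted for 28.8% and the line for 21.4% of the variance of this probe. Slides lie within days, and the day alone accounted for 25.2%. As there are 6 slides and 2 lines, the shares of slides and of lines are not set against each other. Within the days the line difference of ATP1B3 was 0.33 and 0.22. Within slides it was 0.15, 0.41, 0.44, 0.50, 0.23 and -0.064, so that 5 of 6 slides had the higher level in high RFI pigs and slide 6 did not. As the groups were balanced over slides and days, the value with either as a term was still called, and it was also called with each pig left out in turn, at 0.25 to 0.30 (limma adjusted p from 0.00397 to 0.0154). With a single probe, no other part of the transcript was measured.

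**Figure D2:**
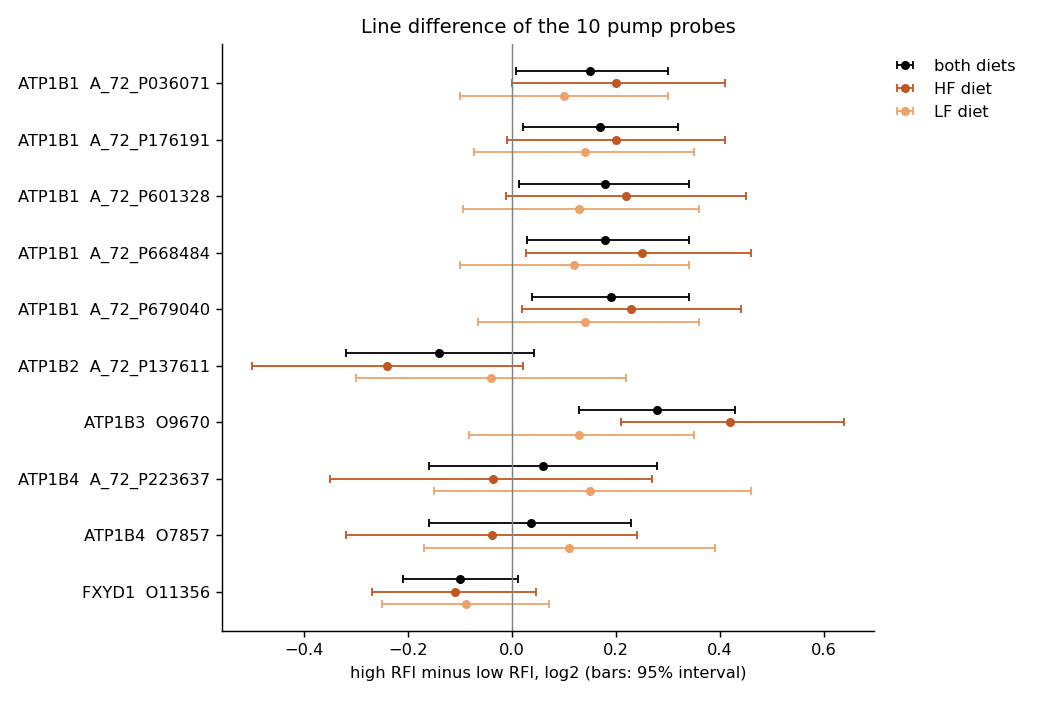
Line difference (high RFI minus low RFI, log2) of the 10 pump probes over both diets and within the HF and the LF diet; points are estimates and bars 95% confidence intervals from limma. ATP1B3 lies farthest to the right, at 0.28 over both diets, and the 5 ATP1B1 probes lie together at 0.15 to 0.19.

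ATP1B1 encodes the beta 1 subunit, the common partner of the alpha subunits in many tissues. With the probe A_72_P036071 and the HF diet, low RFI pigs had levels from 4.97 to 5.93 (median 5.66) and high RFI pigs levels from 5.39 to 6.25 (median 5.87). With the LF diet, low RFI pigs had levels from 5.42 to 6.12 (median 5.61) and high RFI pigs levels from 5.37 to 6.22 (median 5.76). All 4 ranges overlapped, and the lowest value of ATP1B1 came from low RFI HF pig 3 with each of the 5 probes.

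The mean of this ATP1B1 probe was 5.81 ± 0.24 (n = 24) in the high and 5.66 ± 0.25 (n = 24) in the low RFI line, and 20 of 24 high RFI pigs exceeded the low RFI median. The difference was 0.15 (standard error 0.072, interval 0.0086 to 0.30, unadjusted p = 0.0383 and adjusted p = 0.136 from limma). Over the 5 ATP1B1 probes it ran from 0.15 to 0.19 with a median of 0.18, with unadjusted p from 0.0146 to 0.0383 and limma adjusted p from 0.0730 to 0.136. Both ATP1B1 probes outside the overlap, A_72_P036071 at 0.15 and A_72_P668484 at 0.18, had the sign and about the size of the 3 that overlap. These probes share pigs and transcripts, so their number adds no replication.

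On the HF diet the ATP1B1 differences ran from 0.20 to 0.25 (limma adjusted p from 0.152 to 0.231) and on the LF diet from 0.10 to 0.14 (limma adjusted p from 0.524 to 0.671). Within each of the 6 slides all 5 probes were higher in high RFI pigs, from 0.042 to 0.36 with A_72_P036071. The ATP1B1 probe nearest to the threshold, A_72_P679040, had a difference of 0.19 (limma adjusted p = 0.0730). It passed without high RFI HF pig 3, low RFI LF pig 3 or 8, or high RFI LF pig 6 or 10, at a limma adjusted p of 0.0430, 0.0402, 0.0448, 0.0449 and 0.0465. A_72_P668484 passed without high RFI HF pig 3 (limma adjusted p = 0.0439). Leaving out some of the other pigs weakened these differences. With 1 pig left out, A_72_P679040 ran from 0.16 to 0.21 (limma adjusted p up to 0.117). A_72_P036071 ran from 0.12 to 0.17 and was never called (limma adjusted p up to 0.213). The call for ATP1B1 thus changed with the pigs and settings used, and its size varied, while its sign was kept.

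**Figure D3:**
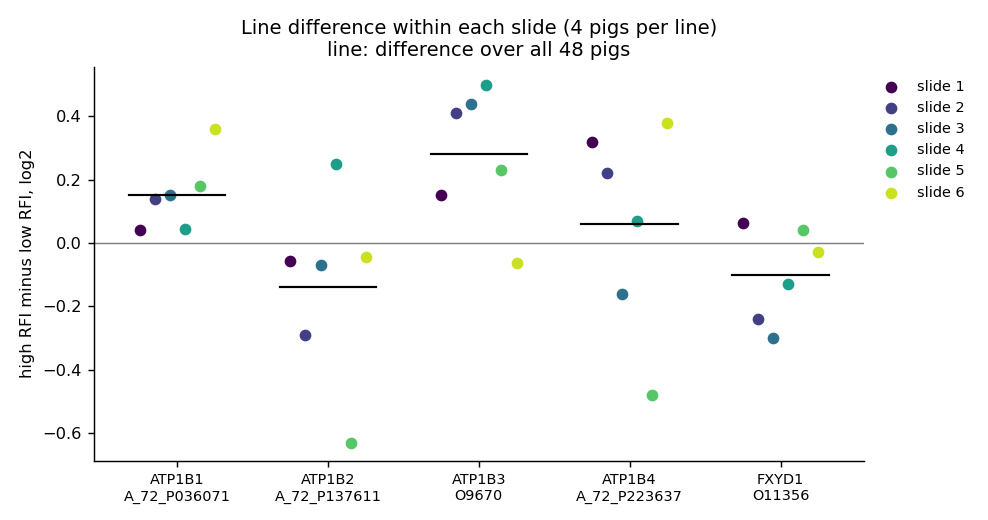
Line difference (high RFI minus low RFI, log2) within each of the 6 slides, 4 pigs per line and slide, for 1 probe per gene (points), with the difference over all 48 pigs (black line). ATP1B1 is above 0 on 6 of 6 slides and ATP1B3 on 5 of 6, while ATP1B2, ATP1B4 and FXYD1 lie on both sides of 0.

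ATP1B2 encodes the beta 2 subunit, also known as an adhesion molecule of glial cells. With the HF diet, low RFI pigs had levels from 2.48 to 3.33 (median 3.09) and high RFI pigs levels from 2.04 to 3.50 (median 2.82). With the LF diet they ran from 2.61 to 3.54 and from 2.29 to 3.48, with a median of 3.04 in both lines. The high RFI HF group of ATP1B2 was the most spread, with a SD of 0.39, and only 1 of its 12 pigs was above the low RFI HF median.

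Over both diets the ATP1B2 difference was -0.14 (standard error 0.091, interval -0.32 to 0.043, limma adjusted p = 0.297). With the HF diet it was -0.24 (limma adjusted p = 0.249) and with the LF diet -0.041 (limma adjusted p = 0.913), and the interaction was -0.20 (interval -0.56 to 0.17). Within slides the ATP1B2 difference ran from -0.63 to 0.25, with 1 of 6 slides above 0. The sign of ATP1B2 was thus opposite to that of ATP1B1 and ATP1B3, without passing the test.

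FXYD1 had the smallest spread between pigs of the 10 probes. On the HF diet, low RFI pigs had FXYD1 levels from 5.78 to 6.35 (median 5.93), and on the LF diet from 5.71 to 6.24 (median 5.94). High RFI pigs had levels from 5.69 to 6.15 (median 5.87) and from 5.57 to 6.12 (median 5.92). The SD within groups of FXYD1 was 0.19, smaller than that of the median tested probe, 0.26, and 26.7% of tested probes had a smaller one.

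The FXYD1 line difference was -0.10 (standard error 0.056, interval -0.21 to 0.012, limma adjusted p = 0.216), so that a difference beyond 0.21 in either direction lay outside the interval. With the HF diet it was -0.11 and with the LF diet -0.088, and on the slides it ran from -0.30 to 0.064. Slides accounted for 26.2%, the scan day alone for 0.491% and the line for 6.62% of the variance of FXYD1.

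ATP1B4 varied most between pigs. With A_72_P223637 and the HF diet, low RFI pigs had ATP1B4 levels from -0.93 to 0.69 (median -0.072) and high RFI pigs levels from -1.12 to 0.26 (median -0.016). With the LF diet, low RFI pigs had levels from -1.0 to 0.19 (median -0.35) and high RFI pigs levels from -0.98 to 0.32 (median -0.19). The SD within groups of ATP1B4 was 0.38 and 0.34 with its 2 probes. The line differences of ATP1B4 were 0.059 (interval -0.16 to 0.28) and 0.036 (interval -0.16 to 0.23), with limma adjusted p of 0.754 and 0.838. Both ATP1B4 probes had differences of -0.037 and -0.038 with the HF diet and of 0.15 and 0.11 with the LF diet, none of which passed.

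Between the diets no pump probe passed the adjusted threshold in limma, and 1 of 10 had an unadjusted p under 0.05, where 0.42% of all tested probes were called and 5513 had such a p. ATP1B4 had the widest difference, with higher mean levels on the HF diet. The difference, HF minus LF, was 0.19 with A_72_P223637 (interval -0.028 to 0.41, limma adjusted p = 0.469) and 0.20 with O7857 (interval 5.4e-05 to 0.39, unadjusted p = 0.0499 and adjusted p = 0.382 from limma). With either ATP1B4 probe, 19 of 24 HF pigs were above the LF median. The difference was 0.29 and 0.27 in the low RFI line and 0.094 and 0.12 in the high RFI line. Slides gave an ATP1B4 diet difference above 0 in 5 of 6 cases with A_72_P223637 and in 6 of 6 with O7857.

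**Figure D4:**
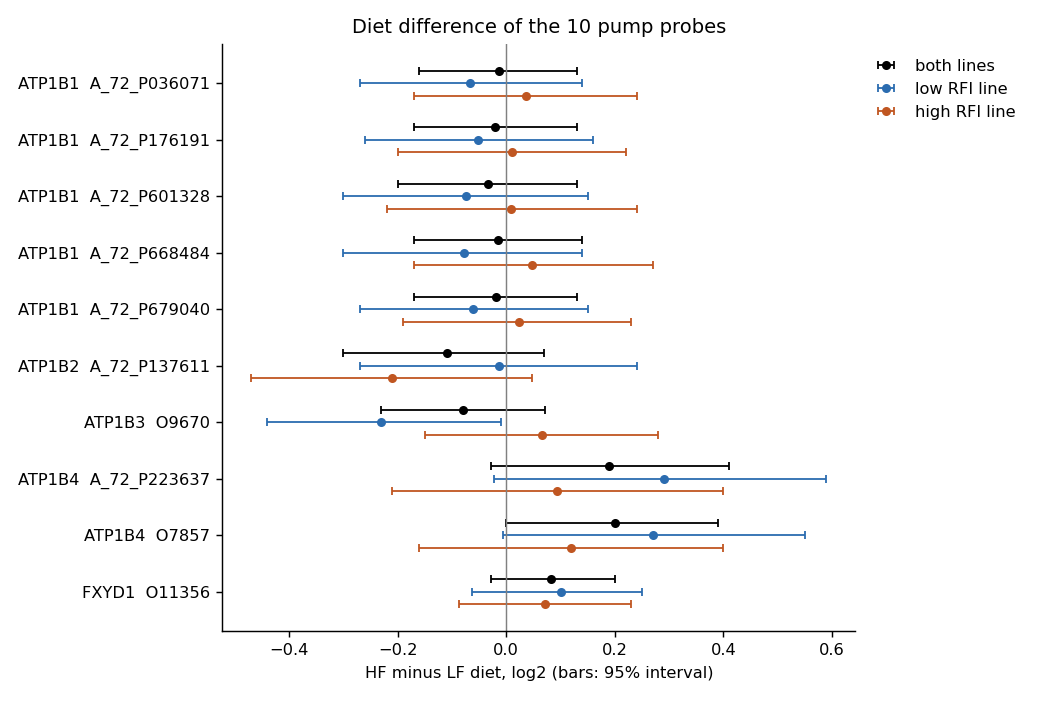
Diet difference (HF minus LF diet, log2) of the 10 pump probes over both lines, in the low RFI line and in the high RFI line; points are estimates and bars 95% confidence intervals from limma. The 2 ATP1B4 probes lie farthest to the right, at 0.19 and 0.20 over both lines, and the ATP1B1 probes lie near 0.

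For ATP1B1 the diet differences lay between -0.034 and -0.014, and the interval with A_72_P036071 was -0.16 to 0.13. ATP1B2 differed by -0.11 (interval -0.30 to 0.07), ATP1B3 by -0.08 (interval -0.23 to 0.072) and FXYD1 by 0.083 (interval -0.029 to 0.20). Within the low RFI line ATP1B3 was lower on the HF diet by an unadjusted p of 0.0407, at -0.23 (limma adjusted p = 0.400), where 0.199% of all probes were called and no pump probe was. Within the high RFI line no pump probe had an unadjusted p under 0.05, and limma called none of all probes (2303 at an unadjusted p under 0.05). The line by diet interaction was called for no probe of the array in limma (1875 at an unadjusted p under 0.05, none of them a pump probe).

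How the subunits varied from pig to pig was described with deviations from the 4 group means over the 48 arrays, which share slides, labelling and scaling. The 5 ATP1B1 probes correlated with each other at 0.91 to 0.98, and the 2 ATP1B4 probes at 0.96. Probes of different pump genes correlated at -0.21 to 0.32, with a median of 0.03. The highest of these were between ATP1B1 and ATP1B4, at 0.24 to 0.32, and the lowest between ATP1B3 and ATP1B4, at -0.19 and -0.21. ATP1B1 and ATP1B3 thus both had higher mean levels in the high RFI line, but their levels did not follow each other within groups, at -0.07 to 0.01.

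**Figure D5:**
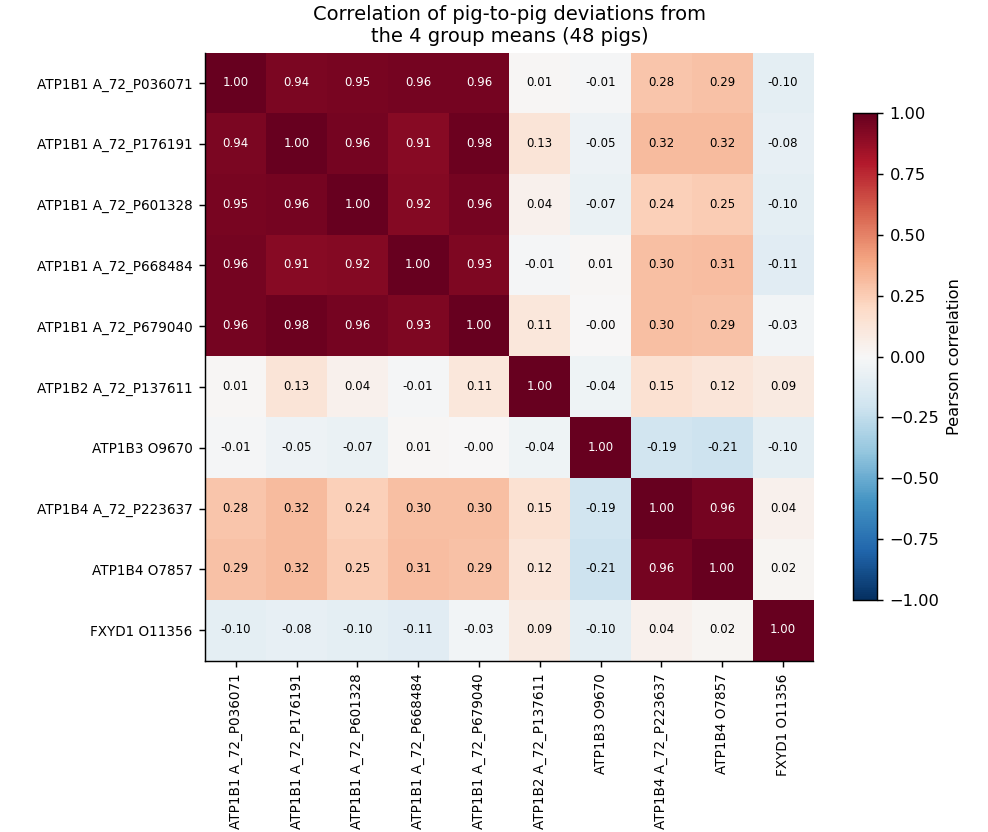
Pearson correlation between the 10 pump probes of deviations from the 4 group means, over 48 pigs; red is positive and blue negative. Probes of ATP1B1 form a block at 0.91 to 0.98 and those of ATP1B4 a pair at 0.96, while pairs of different genes lie between -0.21 and 0.32.

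Over the same deviations, the probes of other genes most like each subunit were listed among 15180 probes with 1 symbol and well above background on all arrays. For ATP1B1 they were CD36, which takes up fatty acids, at 0.62, SAV1 at 0.61, KLF11 and PPP2R1B at 0.60 and VPS72 at 0.59, and the lowest were THOP1 at -0.59 and TCTN2 at -0.58. None of these probes passed the test between the lines (limma adjusted p from 0.142 to 0.997). For ATP1B3 they were PITPNB at 0.70, XIRP2, an actin-binding protein of muscle, at 0.69, HDAC1 at 0.66, and KIAA1468 and RAP1A at 0.65. The lowest for ATP1B3 were YPEL1 at -0.64 and IMPA2 at -0.60, of which the IMPA2 probe was lower in the high RFI line, with a difference of -0.21 (limma adjusted p = 0.0205).

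ATP1B4 was most like SLC25A20, the mitochondrial carnitine carrier, at 0.61, FBP2, the muscle fructose bisphosphatase, at 0.60, HFE2, hemojuvelin, at 0.58, OGG1 at 0.57 and OGT at 0.56, and least like DHRS3 at -0.58 and ARID4A at -0.56. Among the probes most like ATP1B2 were TMBIM6 at 0.56, RABGAP1 at 0.54, EDC4 at 0.53 and FNDC3B at 0.52, and it was least like SH2D2A at -0.56 and FMR1 at -0.55. FXYD1 had the closest likeness, with PYGM, the muscle glycogen phosphorylase, at 0.78, PELP1 and UBE2M at 0.75 and STUB1 and TECR at 0.74, and was least like WIPF1 at -0.67 and ASPN at -0.66. Of the 5 probes most like FXYD1, those of PYGM, PELP1, UBE2M and TECR were lower in high RFI pigs, at -0.17 to -0.14 (limma adjusted p from 0.0201 to 0.0445). The FBP2 and FNDC3B probes were also lower, at -0.21 and -0.23 (limma adjusted p = 0.0446 and 0.00895). Of all tested probes 9.85% were called lower, and the FXYD1 probe itself was not called between the lines. The median GC content was 45% for the 5 probes most like FXYD1, 36.6% for the 2 least like it and 41.7% for all compared. For ATP1B3 it was 35% and 50%, for ATP1B1 35% and 40.8%, for ATP1B2 38.3% and 45%, and for ATP1B4 45% and 43.4%. The part of base composition in these correlations was not tested.

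Of the other subunits of the pump, FXYD2 and FXYD6 were higher and ATP1A4 was lower in high RFI pigs. The list held 10 genes, of which FXYD5 and FXYD7 were not found by symbol and FXYD4 was too dim, and 16 probes of 6 genes were tested. Of these, 4 were called higher and 1 was called lower in high RFI pigs, where 6.57% of all tested probes were called higher and 9.85% lower. The median difference of the list was -0.0013, and its sign changed with the scaling. FXYD2, the gamma subunit known from kidney, was called with 3 of 3 probes, at 0.31, 0.51 and 0.71 (limma adjusted p = 0.0263, 0.00589 and 0.0121). The FXYD2 probe with the widest difference, A_72_P165126, was well above background on 46 of 48 arrays. With normexp background correction its difference was 0.32 and that of O11081 was 0.25. With its probe O11081, FXYD2 was at -1.60 ± 0.42 (n = 24) in high and -2.11 ± 0.51 (n = 24) in low RFI pigs.

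FXYD6, phosphohippolin, was at 1.05 ± 0.25 (n = 24) in high and 0.68 ± 0.33 (n = 24) in low RFI pigs, which differ by 0.36 (standard error 0.085, limma adjusted p = 0.00261). FXYD6 and the FXYD2 probe O11081 were also called on the LF diet, at 0.47 and 0.70 (limma adjusted p = 0.0231 and 0.0292). ATP1A4, an alpha subunit known from sperm, was at -2.93 ± 0.72 (n = 24) in high and -1.93 ± 0.67 (n = 24) in low RFI pigs, which differ by -1.0 (standard error 0.20, limma adjusted p = 0.000495). Its tested probe was well above background on 46 of 48 arrays, so part of the values lie near background, and with normexp background correction the size of the ATP1A4 difference was smallest, at -0.47. ATP1A4 was also called on the HF diet, at -1.04 (limma adjusted p = 0.0227). The FXYD2, FXYD6 and ATP1A4 probes were called in each other setting in which they could be tested.

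The related proton potassium pumps, ATP4A, ATP4B and ATP12A, had no probe called in limma of 4 tested and 0 at an unadjusted p under 0.05, and the widest difference among their probes was -0.12, of the ATP4B probe A_72_P453249. The other ATP4B probe, A_72_P444704, was at 0.056.

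Among genes that act on the pump or on FXYD1, 2 of 14 probes were called between the lines, a share near the 16.4% of all tested probes. PRKACA, a catalytic subunit of protein kinase A, was lower in high RFI pigs with A_72_P090021, at -0.13 (limma adjusted p = 0.00637), and not called with its other probe, at -0.11. NEDD4L, a ubiquitin ligase, was higher by 0.16, at a limma adjusted p of 0.0499. PRKACA kept its call in 7 and NEDD4L in 5 of 9 other settings. SGK1 and PRKACB were not called, and of the 7 probes of PPP2CA, a catalytic subunit of protein phosphatase 2A, only A_72_P343478 was called, on the HF diet, at 0.27.

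Of the anchors and nuclear partner, 1 of 6 probes was called, again near the 16.4% of all tested, for SNW1, the transcription cofactor known to bind the ATP1B4 protein. This SNW1 probe, CUST_284_PI427286967, was at -0.13 (limma adjusted p = 0.0390), the other 2 SNW1 probes were at -0.0047 and 0.007, and the call was kept in 5 of 9 other settings. Of the carriers and channels, 5 probes of 4 genes were tested. Of these, 2 were called, both lower in high RFI pigs, against 9.85% of all tested probes called lower. Among the 2 was KCNJ11, the pore of the ATP-sensitive potassium channel, at -0.19 with A_72_P001531 (limma adjusted p = 0.0331). The other KCNJ11 probe was at -0.028 and was not called. The KCNJ11 call was kept in 6 of 9 other settings.

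Some marker probes of muscle fibres and of other cells differed between the lines. Skeletal muscle fibre markers were abundant on all arrays, as the label of the tissue says, with 13 of 44 probes lower in high RFI pigs. Of the fast fibre markers, 18 of 42 probes were lower and none higher in high RFI pigs, with a median difference of -0.13, while 1 of 42 slow fibre probes, of ATP2A2, was higher. The fibre and fast fibre lists share MYLPF, TNNC2 and TNNT3, so lower probes of these genes are in both counts. The remaining lower fibre probes were all of CKM. With quantile normalization 6 fast fibre probes and 5 of the 44 fibre probes were lower, and without the filter on dim probes 8 and 5. The median difference with quantile normalization was -0.028 for the fast fibre list and -0.0057 for the fibre list, against -0.13 and -0.092. Lower probes made up 9.85% and higher probes 6.57% of all tested. The summed fast fibre signal with the HF diet ran from 22100 to 31800 in high and from 27000 to 36800 in low RFI pigs, and with the LF diet from 25800 to 31800 and from 26500 to 34900.

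Of all tested probes 6.57% were called higher and 9.85% lower in high RFI pigs. Of 25 adipocyte probes 8 were higher, all of FABP4, and of 9 macrophage probes 3 were higher, of CD14 and CD163. The median difference of the adipocyte list was 0.49 with the HF diet and -0.22 with the LF diet, with no adipocyte probe called on either. Of 13 fibroblast probes 4 were higher, of COL1A1 and COL1A2. Of 14 probes of Schwann cells and nerve 6 were lower, of MBP and S100B, and 1 higher, of PMP22. Without the filter on dim probes the higher probes were 1 of adipocytes and 2 of fibroblasts, and the lower ones 3 of Schwann cells and nerve. With normexp background correction 3 probes of Schwann cells and nerve were lower. None of the probes of endothelium (12), smooth muscle (12) and erythroid cells (2) was called in limma, and 2 probes of smooth muscle had an unadjusted p under 0.05. The part of these cells in the differences of ATP1B3 and of the other subunits was not tested.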

How the data were processed

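Each of the 48 muscle samples was hybridised with Cy3 on its own 60 K one-colour array, and the authors deposited spot intensities and flags from Agilent Feature Extraction 10.7.3.1, which subtracts the background. They also deposited a table of log2 values, made per the labels with R 2.10.0 and found to be the log2 median signal minus each array's median, which was used as an alternative and holds 9 of the 10 probes. Per array, the median processed signal was 52.8 to 108.0 and 59.2% to 74.2% of probes were well above background. The number of arrays limits the precision.

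Outlier spots were left out, spots of one probe averaged, and log2 processed signals centred per array on the mean of probes that exceeded background well on at least 12 arrays. This follows the mean centering of the methods. Groups came from the labels, and pigs were numbered 1 to 12 within groups as names only. Line, diet and interaction were fitted with limma 3.58.1 (R 4.3.3) on all 42125 tested probes, with Python 3.11.15, pandas 2.3.3 and matplotlib 3.10.9 for summaries. The fit was tested on simulated data with known differences. Alternatives covered scaling, background correction, the filter on dim probes, outlier spots, slide, scan day, the deposited table, averaging per symbol, each pig left out, and the methods' variance analysis.

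The members, gene lists and tests were chosen with earlier results of these data known. Some ATP1B1, ATP1B4 and ATP1A4 probes were also among predictors that the study chose on pigs that include these, so their direction here is not independent evidence. A further probe listed there as ATP1B4 has another name in the array files and was not analysed here. The paper also reported, by qPCR on pigs that include these, a higher ATP1B1 level in the high RFI line. Per gene, 1 probe is given in full, the one well above background on most arrays and then of highest mean level. Listed genes are named when called, or as the widest difference of a list with none called; SGK1, PRKACB and PPP2CA were added after their values were seen. Some genes of the lists and of the likeness comparison are not reported by name here. A marker list was summed as the linear centred signals of its tested probes.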

Additional observations from a re-analysis of the deposited data

How the results depend on the processing

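The number of pump probes called between the lines over both diets was 1, and it was 2 with quantile normalization, with normexp background correction, with probes well above background on all arrays only and with the deposited table. In each of these 4 settings the second was the ATP1B1 probe A_72_P679040 (limma adjusted p = 0.0383, 0.0381, 0.0474 and 0.0437). By the methods' variance analysis with no adjustment it was 6, the 5 ATP1B1 probes and ATP1B3, and 1 after Benjamini-Hochberg adjustment. With each pig left out in turn it ran from 1 to 3 between the lines and from 0 to 0 between the diets. The counts on each diet, within each line and for the interaction were the same in all settings run. ATP1B3 was called between the lines in all 10 other settings of its probe, at 0.28 to 0.30 (adjusted p from 0.00161 to 0.0193), and reversed only on slide 6, at -0.064.

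The sign of the near-zero diet difference of ATP1B1 turned with the processing. With 75th percentile scaling it was 0.011 with A_72_P036071, 0.0048 with A_72_P176191, 0.010 with A_72_P668484 and 0.0062 with A_72_P679040. With quantile normalization it was 0.0032 with A_72_P036071 and 0.0083 with A_72_P668484. With the deposited table it was 0.014 with A_72_P036071, 0.0050 with A_72_P601328 and 0.0054 with A_72_P679040. With a pig left out, the ATP1B1 diet difference ran from -0.034 to 0.015 with A_72_P036071, from -0.045 to 0.0087 with A_72_P176191, from -0.037 to 0.018 with A_72_P668484 and from -0.039 to 0.0097 with A_72_P679040. The cause was not tested. No paired analysis was possible because every title has the same replicate number and otherwise ends in a number found in no other title, so no number is common to the groups. FXYD1 kept its sign between the lines, at -0.10 to -0.047, and ATP1B2 at -0.14 to -0.10.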
